A study of Schizosaccharomyces pombe with 4 samples.

Results

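The genes described here are those of the fission yeast Schizosaccharomyces pombe whose systematic names begin with SPBCPT2R1, SPBPB2B2, SPBPB21E7, SPBP4G3 or SPBC8E4, names taken from the cloned fragments (cosmids) in which this stretch of chromosome II was first sequenced. The phosphate genes pho84 (SPBC8E4.01c) and pho1 (SPBP4G3.02) were left out of the set, and both were lower in set2d, as given below. The rule selects 42 of the 6986 genes of the deposited table by name. It was set with earlier results of these data known, so the choice was not blind to the values. They are labelled as genes at the right end of chromosome II, but the annotation of the ASM294v3 assembly places 32 of them at that end and the other 10, all SPBPB21E7 genes, at the left end of the same chromosome, between 50 and 100 kb from it. The label therefore does not hold for SPBPB21E7, and its genes are described apart from the rest. Of the 32 right-end genes, 16 lie within 50 kb of the assembled end, 13 between 50 and 100 kb and 3 between 100 and 150 kb.

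RNA-seq libraries were made from 2 samples of strain WT972, labelled wild type (WT), and 2 of strain SPKK1227, labelled set2d, a deletion of set2. All 4 came from asynchronous log-phase cells in YEA medium at 30 °C, and the labels give no treatment. No other allele of either strain is named, each genotype is 1 strain, and nothing states that the samples of a genotype were separate cultures, so the spread between them may be technical. The table holds log2 normalized counts with a floor at 10 normalized counts, so a gene with no reads and a gene with a few are both listed at 10. The gene set2 itself was at 10503 and 8665 normalized counts in WT and at 2257 and 1448 in set2d (log2 change -2.40, SE 0.22; limma, adjusted p = 0.000410). It was lower in both set2d libraries, as labelled, and not at the floor; which part of the gene was removed is not given.

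Set2 is the histone methyltransferase that travels with RNA polymerase II and marks histone H3 on the bodies of transcribed genes, a mark read by histone deacetylases. Fission yeast chromosome ends carry repeats, then heterochromatin marked by the methyltransferase Clr4, then a wider zone of condensed chromatin in which many genes are weakly transcribed under rich growth. Genes in that zone often serve uptake and use of alternative nutrients, stress responses or families found only in this species.

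In set2d, 29 of the 33 genes of the set that could be tested rose, none fell and 4 did not pass the test (limma on all 6633 tested genes, Benjamini-Hochberg adjusted p below 0.05). At an unadjusted p below 0.05 the counts were 30 higher and 0 lower, beside 1234 higher and 638 lower of all 6633 tested genes. At the adjusted threshold, 11.6% of all tested genes were called higher and 2.77% lower. The median log2 change of the 33 was 2.85, beside 0.01 over all tested genes. The 2 numbered pairs of libraries gave medians of 2.39 and 2.77, while the median absolute log2 difference between replicates of these genes was 0.23 in WT and 0.40 in set2d. The WT value includes 6 tested genes at the floor in both WT libraries, whose difference of 0 is set by the floor. Both set2d libraries were above both WT libraries for 32 of the 42, against 29.9% of the table, and below them for 1 of 42, against 24.9%. A library of bulk RNA does not tell a higher level in every cell from expression in more of the cells.

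The remaining 9 of the 42 were not tested because at most 1 library was above the floor. Of these, 7 were at the floor in all 4 libraries: SPBPB21E7.05, SPBPB2B2.16c, SPBPB2B2.19c, SPBCPT2R1.01c, SPBCPT2R1.02, SPBCPT2R1.03 and SPBCPT2R1.05c. SPBPB2B2.15 was listed at 64.0 in set2d replicate 2 alone, and SPBCPT2R1.10 at 14.9 in set2d replicate 1 alone. Of the 27 genes above the floor in a WT library, 25 rose. Among these, SPBPB21E7.10 and SPBPB21E7.06 were above it in only 1 WT library, so they too needed a set2d value to be tested. Of the 15 at the floor in both WT libraries, 6 were tested and 4 rose; those 6 entered the test only through their set2d values, so their calls follow in part from the filter. With all 42 counted and the floor taken as the level, the median log2 change was 1.68, with the genes at the floor throughout entered as 0. At the right end alone 24 genes were tested and 20 rose, with a median of 2.11.

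**Figure D1:**
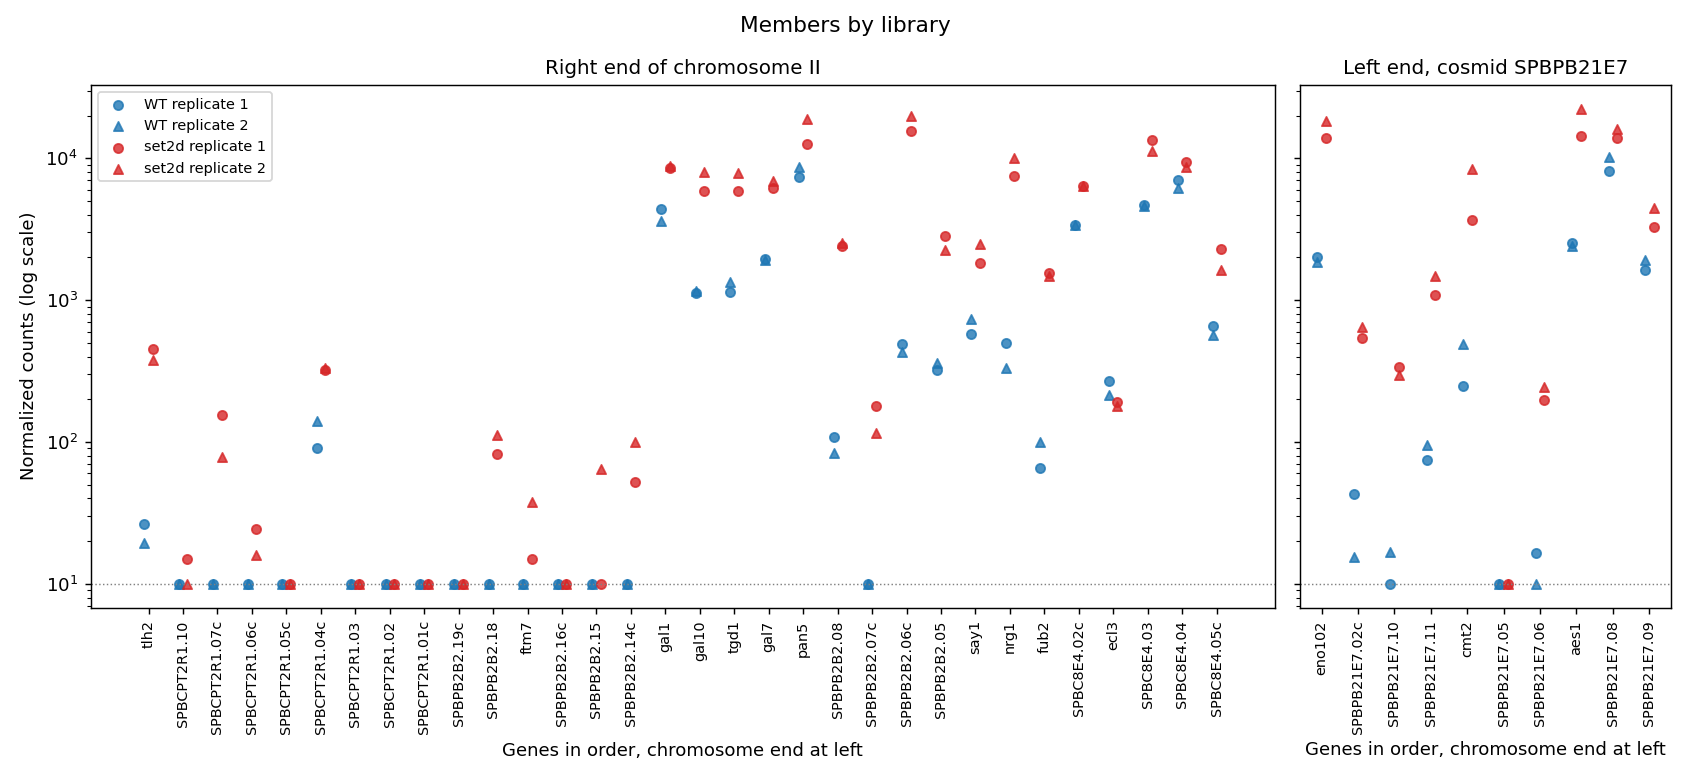
Normalized counts on a log axis for each of the 42 genes in order from the chromosome end, with the right end of chromosome II in the left panel and cosmid SPBPB21E7 in the right one; blue is WT, red set2d, circles replicate 1 and triangles replicate 2, and the dotted line is the floor of 10. The red points lie above the blue ones for 32 of the 42 genes and below them only for ecl3.

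Nearest the end lies tlh2 (SPBCPT2R1.08c), which codes for a RecQ-type DNA helicase of the telomere-linked repeats. It stood at 26.4 and 19.4 normalized counts in WT and at 450.3 and 376 in set2d (log2 change 4.19, SE 0.36; limma, adjusted p = 0.000298). Its near-identical copy tlh1 at the left end of chromosome I was at the floor in both WT libraries and at 26.6 and 23.5 in set2d, and did not pass (limma, adjusted p = 0.115). Reads from such copies cannot be assigned with confidence, and how the submitters counted reads that match several places is not stated. The same limit applies to most of the outermost genes: 17 of the 42 have a copy elsewhere with at least 95% identity over at least 50% of their length, and 16 of those 17 are at the right end.

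The pseudogene of a malic enzyme, SPBCPT2R1.07c, went from the floor in both WT libraries to 155 and 78.2 in set2d, at least 11.7-fold higher by the group means. The pseudogene SPBCPT2R1.06c reached 24.4 and 15.9 in set2d from the floor in WT, and did not pass (log2 change 0.98, SE 0.51; limma, adjusted p = 0.257). The transmembrane-helix gene ftm7 (SPBPB2B2.17c) likewise reached 14.9 and 37.8, and did not pass (log2 change 1.24, SE 0.59; limma, adjusted p = 0.208). Without set2d replicate 1 its change was 1.92 and passed (limma, adjusted p = 0.0398), but that fit sets 1 set2d library against WT values at the floor and takes its spread from other genes. In set2d replicate 1, where the values fall on steps of 1.06 normalized counts, these low levels rest on 23 reads for SPBCPT2R1.06c and 14 for ftm7, with counting errors of 20.9% and 26.7%. For SPBPB2B2.18, a conserved fungal gene, the change was 3.26 on the log2 scale, again from the floor.

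The DUF999 genes, a family found only in S. pombe, hold 4 of the 42. Of these 3 were called higher, but SPBPB2B2.07c and SPBPB2B2.14c, at the floor in both WT libraries, entered the test only through their set2d values. SPBCPT2R1.04c was the one of them above the floor in WT, at 91.4 and 140 normalized counts against 322 and 335 in set2d (log2 change 1.54; limma, adjusted p = 0.0181). Its call was lost without WT replicate 1 and without either set2d library, at changes between 1.23 and 1.56. SPBPB2B2.07c reached 178 and 116 in set2d, and SPBPB2B2.14c 52.0 and 99.6, both from the floor. The fourth, SPBCPT2R1.01c, was at the floor in all 4 libraries. The start of its coding sequence is the same as that of SPBCPT2R1.04c over 90 bases, while SPBPB2B2.07c differs from both at 12 of them. These starts, from the RefSeq sequence of ASM294v3, are shown because 2 of the 3 genes cannot be told apart by reads from this stretch, with the differing bases in capitals:
SPBCPT2R1.04c: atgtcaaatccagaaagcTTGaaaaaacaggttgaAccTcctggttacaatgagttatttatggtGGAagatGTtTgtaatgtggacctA
SPBCPT2R1.01c: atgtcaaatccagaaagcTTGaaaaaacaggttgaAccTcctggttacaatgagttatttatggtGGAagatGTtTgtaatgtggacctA
SPBPB2B2.07c: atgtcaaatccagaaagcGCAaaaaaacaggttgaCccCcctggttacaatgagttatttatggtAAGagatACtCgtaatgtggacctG

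SPBPB2B2.07c, described above, is also a near-identical copy of SPBPB2B2.14c, so the values of these 2 genes of the set may share reads. SPBPB2B2.14c has further copies at 2 other chromosome ends, and it and those copies were low in WT and higher in set2d. SPBC1348.07, at the left end of chromosome II, was just above the floor in 1 WT library, at the floor in the other and at 177 and 201 in set2d. SPAC977.06, at the left end of chromosome I, was at 18.0 and 10 (the floor) in WT and at 107 and 129 in set2d. The first 90 bases of SPBPB2B2.14c, SPBC1348.07 and SPAC977.06 differ at 1 position, again in capitals:
SPBPB2B2.14c: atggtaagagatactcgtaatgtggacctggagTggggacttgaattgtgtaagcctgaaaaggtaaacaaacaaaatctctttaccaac
SPBC1348.07: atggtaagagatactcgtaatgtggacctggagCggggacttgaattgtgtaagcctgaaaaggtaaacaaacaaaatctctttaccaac
SPAC977.06: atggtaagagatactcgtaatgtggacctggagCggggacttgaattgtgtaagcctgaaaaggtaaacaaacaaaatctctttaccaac

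SPBPB2B2.19c, of a family of membrane proteins found only in S. pombe, was at the floor in every library and has 3 near-identical copies. Of these ftm5 was at the floor in all 4 libraries and ftm1 did not pass, at 23.5 and 10 in WT and 26.6 and 21.9 in set2d (limma, adjusted p = 0.489). The copy ftm4 (SPAC750.05c) at the right end of chromosome I stood within 1 normalized count of the floor in WT and at 756 and 915 in set2d. The annotated sequences of SPBPB2B2.19c and ftm4 are identical over their first 90 bases (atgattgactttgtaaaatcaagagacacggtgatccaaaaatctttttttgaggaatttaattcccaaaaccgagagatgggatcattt), so reads from this stretch do not tell the 2 copies apart. How far the rest of the 2 genes differs is not given here, and which locus was transcribed was not tested. Among the 17 genes with a copy, 9 were tested and 7 rose. Among the 25 without one, 24 were tested and 22 rose, with a median log2 change of 2.73. Of the 7 genes at the floor throughout, 6 have a copy; SPBPB21E7.05 does not.

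Inward of the repeats lies the galactose cluster, gal1 (SPBPB2B2.13, galactokinase), gal10 (SPBPB2B2.12c, UDP-glucose epimerase) and gal7 (SPBPB2B2.10c, galactose phosphate uridylyltransferase), the enzymes of the pathway that feeds galactose into glycolysis. No galactose is named in the labels. All of the cluster rose. The count of gal1 was 4372 and 3607 in WT and 8614 and 8881 in set2d (log2 change 1.14, SE 0.14; limma, adjusted p = 0.00174). For gal10 it was 1115 and 1167 in WT and 5861 and 7946 in set2d (log2 change 2.58, SE 0.19; limma, adjusted p = 0.000156). For gal7 it was 1959 and 1921 in WT and 6178 and 6910.1 in set2d (log2 change 1.75, SE 0.15; limma, adjusted p = 0.000296). In none of the 3 did the groups overlap. The gene tgd1 (SPBPB2B2.11, a nucleotide-sugar dehydratase) lies on the other strand of gal10 over 98.8% of its length and rose by 2.47. Whether strands were told apart in counting is not stated, so the values of gal10 and tgd1 may count the same reads. The non-coding RNA gene SPNCRNA.1697 covers 58.1% of the length of gal1 on the other strand and rose by 1.16. The values of gal1 and SPNCRNA.1697 may therefore also share reads. The call for gal1 was lost without either set2d library (limma, adjusted p = 0.0534 and 0.0508), at log2 changes of 1.16 and 1.12. Per kb of gene, gal1 and gal7 were at 2021 and 1329 normalized counts in WT and gal10 at 325; in set2d gal1 and gal7 were at 4431 and 4482 and gal10 at 1965.

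The 250 bases before the annotated starts of the 3 genes are given because they moved together. They are from RefSeq's ASM294v3, which is not the submitters' build, are written in the direction of transcription, and carry in capitals any TATAAA, the letters of a TATA box, or CCAAT on either strand. The window of gal10 lies on the minus strand at chrII:4487536-4487785, that for gal1 on the plus strand at chrII:4488048-4488297, and that for gal7 on the minus strand at chrII:4483694-4483943:
gal10: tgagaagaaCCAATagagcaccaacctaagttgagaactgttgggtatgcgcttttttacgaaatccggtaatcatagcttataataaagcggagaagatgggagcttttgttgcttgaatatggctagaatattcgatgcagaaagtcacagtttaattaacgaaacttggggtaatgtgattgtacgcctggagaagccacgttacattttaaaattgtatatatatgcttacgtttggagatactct
gal1: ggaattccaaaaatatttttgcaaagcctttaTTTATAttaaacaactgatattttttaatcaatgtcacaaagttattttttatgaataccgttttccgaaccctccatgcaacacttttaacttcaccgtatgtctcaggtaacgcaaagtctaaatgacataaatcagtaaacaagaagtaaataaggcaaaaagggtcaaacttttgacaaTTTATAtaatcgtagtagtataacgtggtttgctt
gal7: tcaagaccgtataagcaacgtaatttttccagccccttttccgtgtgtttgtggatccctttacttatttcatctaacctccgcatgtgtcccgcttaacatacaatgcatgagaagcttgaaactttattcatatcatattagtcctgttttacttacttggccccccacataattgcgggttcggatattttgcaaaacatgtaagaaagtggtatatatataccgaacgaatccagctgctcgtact

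The window of gal1 holds TATAAA at 2 places, that of gal10 holds CCAAT once, and that of gal7 holds neither. Windows were taken only for coding genes whose annotated start lies before the coding sequence, 16 of the 35 coding genes of the set and 4512 of 5113 over the genome. The palindrome that the activator Gal4 binds in budding yeast, CGG and CCG set 11 bases apart and read on both strands, was in none of the 16 windows of the set and in 0.488% of the 4512. TATAAA was in 6 of the 16 and in 44.6% of all windows, and CCAAT in 4 of the 16 and in 35.2%. TGACGT, the core of the cAMP response element, was in 0 of the 16 and in 5.36% of all. These are matches of letters and not sites of binding.

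**Figure D2:**
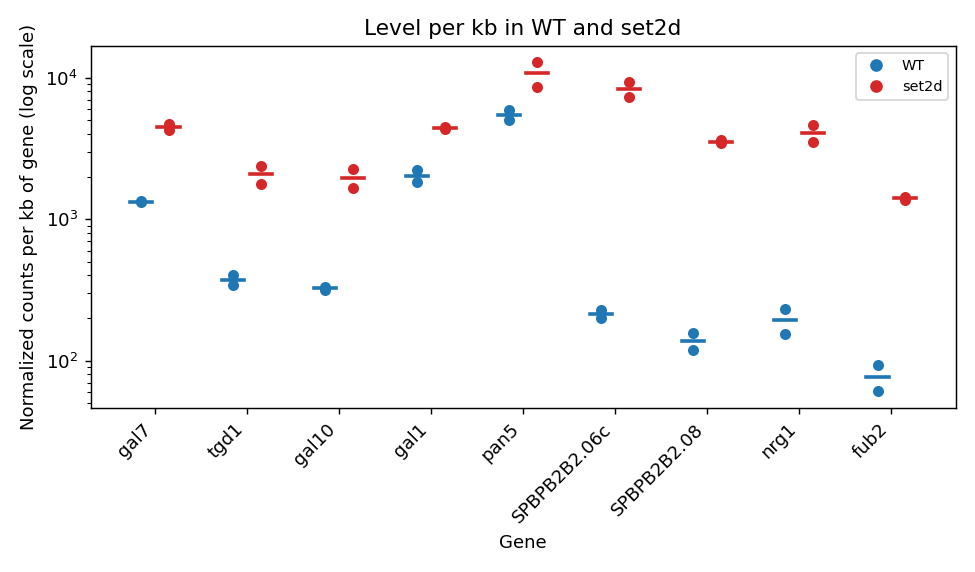
Normalized counts per kb of gene on a log axis for gal1, gal10 and gal7 of the galactose cluster, tgd1 and 5 further right-end genes. Points are libraries, lines group means, blue WT and red set2d. Each gene's set2d points lie above its WT points, and the gap is widest for SPBPB2B2.06c and narrowest for pan5.

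The largest change of the set was that of SPBPB2B2.06c, annotated as a phosphoprotein phosphatase and as a member of the extracellular nucleotidase family. It went from 489 and 432 normalized counts in WT to 15545 and 19835 in set2d (log2 change 5.26, SE 0.18; limma, adjusted p = 1.1e-05). Per kb that is 215 in WT and 8239 in set2d, from well under the median of 3533 for genes outside the set in WT to above their 3595 in set2d. No annotated gene overlaps it and it has no near-identical copy. Its upstream window on the minus strand at chrII:4471165-4471414 held none of the 4 motifs:
SPBPB2B2.06c: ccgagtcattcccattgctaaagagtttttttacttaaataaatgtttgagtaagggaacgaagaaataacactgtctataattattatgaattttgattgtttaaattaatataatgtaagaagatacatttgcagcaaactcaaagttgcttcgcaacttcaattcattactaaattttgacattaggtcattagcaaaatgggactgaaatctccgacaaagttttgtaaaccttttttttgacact

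SPBPB2B2.08, a conserved fungal gene that lies beyond the DUF999 gene SPBPB2B2.07c, was at 109 and 83.7 in WT and at 2390 and 2513 in set2d (log2 change 4.68, SE 0.26; limma, adjusted p = 4.5e-05). An annotated non-coding RNA covers it whole on the other strand. The amino-acid permease gene nrg1 (SPBPB2B2.01) was at 498 and 331 in WT and at 7519 and 10002 in set2d (log2 change 4.42, SE 0.25; limma, adjusted p = 4.6e-05). The gene fub2 (SPBP4G3.03), of the PI31 family of proteasome regulators, was at 66.0 and 101 in WT and at 1564 and 1490.1 in set2d (log2 change 4.23, SE 0.30; limma, adjusted p = 0.000123). In all 3 the lowest set2d library was many times the highest WT library.

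In the same stretch 3 genes annotated as enzymes rose by less. SPBPB2B2.05, of the class I glutamine amidotransferases, rose by 2.90 on the log2 scale, from a mean of 340 ± 25.8 to 2551 ± 424 normalized counts (SD, n = 2 each). The sterol deacetylase gene say1 (SPBPB2B2.02) rose by 1.71, from 656 ± 109 to 2152 ± 474. The gene pan5 (SPBPB2B2.09c), of a dehydropantoate reductase in the synthesis of pantothenate, had the highest level per kb of the right-end SPBPB2B2 genes in WT, 5447, and rose by 0.95 (limma, adjusted p = 0.0129), from 8051 ± 922 to 15818 ± 4393. The calls of say1 and pan5 were lost without set2d replicate 2 (limma, adjusted p = 0.0556 and 0.0737), where the changes were 1.48 and 0.66, and that of pan5 also without a mean-variance trend.

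On the inward side the direction turned within a few genes. The acid phosphatase gene pho1 and the phosphate transporter gene pho84, left out of the set, lie between fub2 and SPBC8E4.02c. Levels of pho1 were 19796 and 15222 in WT and 8693 and 8194 in set2d, a log2 change of -1.04 (limma, adjusted p = 0.00261), and those of pho84 were 63582 and 45693 against 15018 and 15955, a log2 change of -1.80 (limma, adjusted p = 0.000312). The call of pho1 was lost without either set2d library, at log2 changes of -1.08 and -0.998. SPBC8E4.02c rose by 0.92 (SE 0.13; limma, adjusted p = 0.00324), from 3368 and 3396 in WT to 6374 and 6394 in set2d. In the annotation its name is a synonym of prt2, the non-coding RNA whose transcription represses pho84 and which runs through pho84 on the same strand over 54.5% of its length; what the name covered in the submitters' annotation is not known here.

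The 4 coding genes of SPBC8E4 in the set split. Its agmatinase gene SPBC8E4.03 rose by 1.41, from 4678 and 4588 to 13514 and 11266 normalized counts (limma, adjusted p = 0.000457). The fumarate lyase gene SPBC8E4.05c rose by 1.66, from 658 and 568 to 2277 and 1638 (limma, adjusted p = 0.00287), and lost the call without set2d replicate 1, with a change of 1.42 and an adjusted p of 0.0550. The aldo/keto reductase gene SPBC8E4.04 was at 7087 and 6157 in WT and at 9379 and 8652 in set2d, and did not pass (log2 change 0.45, SE 0.13; limma, adjusted p = 0.0585). The gene ecl3 (SPBC8E4.12c), of a family of small proteins that extend chronological lifespan, was at 268 and 215 in WT and at 191 and 178 in set2d, and did not pass (log2 change -0.38, SE 0.30; limma, adjusted p = 0.451). It is the one gene of the set with both set2d libraries under both WT libraries.

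**Figure D3:**
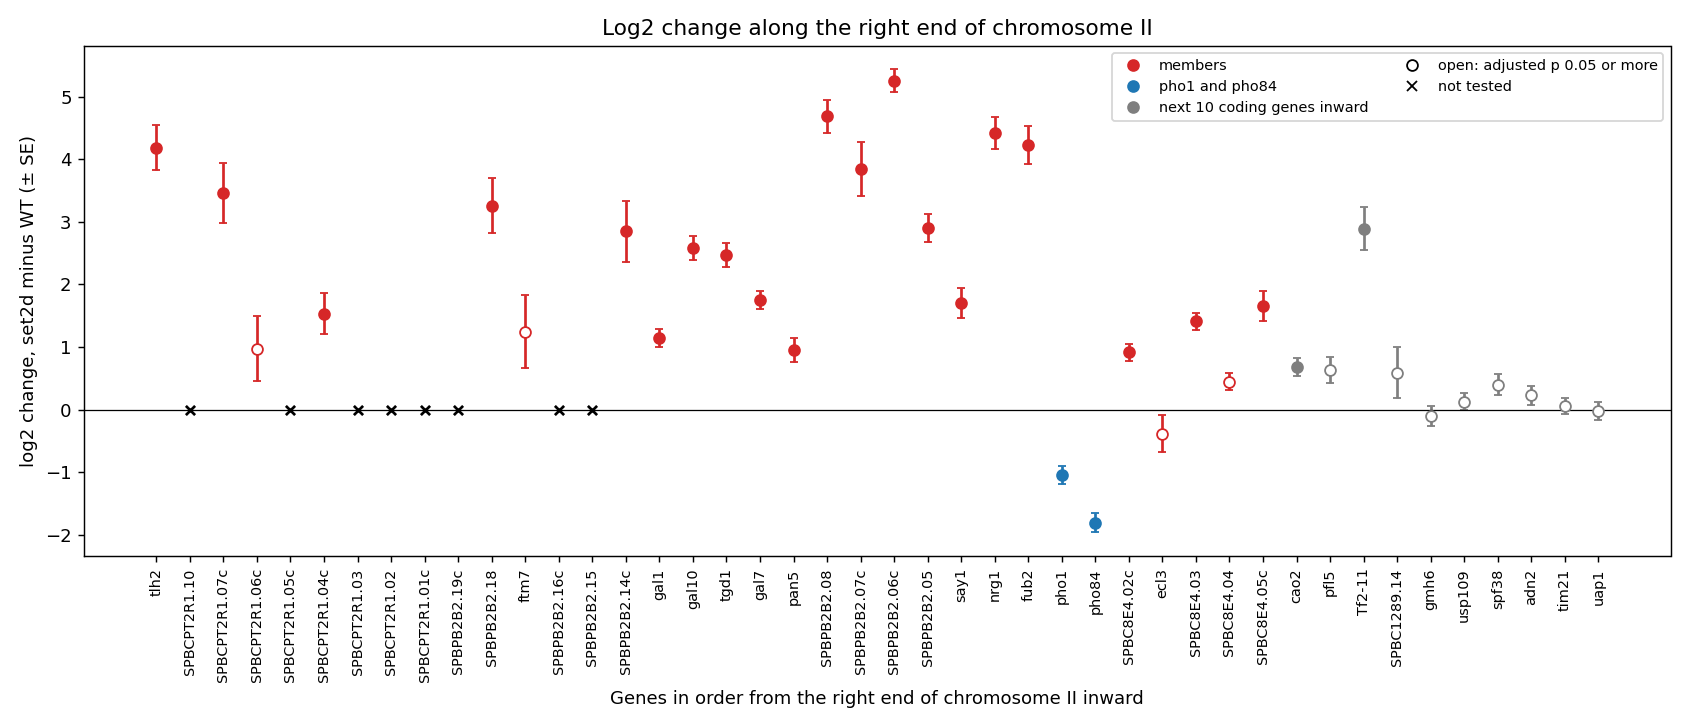
Log2 change, set2d minus WT, with its standard error, for the genes of the right end of chromosome II in order from the end inward; red are genes of the set, blue pho1 and pho84, grey the next 10 coding genes, open symbols did not pass, and crosses on the zero line mark untested genes, which have no fitted value. Changes reach 5.26 at SPBPB2B2.06c, turn negative at pho1 and pho84, and lie between -0.10 and 0.69 for the next 10 genes apart from Tf2-11 at 2.89.

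Set out by position, the share of listed genes that rose was 6 of 16 within 50 kb of the right end, 12 of 13 between 50 and 100 kb, and 2 of 3 between 100 and 150 kb. Of the 16 nearest the end, 8 could not be tested, and all but gal1 have a near-identical copy. Of the 8 that were tested, 5 were at the floor in both WT libraries and entered only through set2d; the other 3, tlh2, SPBCPT2R1.04c and gal1, had WT values and rose. By cosmid, SPBCPT2R1 had 3 risen of 4 tested and 9 listed, SPBPB2B2 had 13 of 14 and 17, SPBP4G3 had 1 of 1 and 1, and SPBC8E4 had 3 of 5 and 5. Median log2 changes of the tested genes were 2.498 in SPBCPT2R1, 2.71 in SPBPB2B2 and 0.92 in SPBC8E4. Of the next 10 coding genes inward, 2 rose and none fell, with a median of 0.32: cao2, a copper amine oxidase, by 0.69, and the retrotransposon Tf2-11 by 2.89. Levels of Tf2-11 were 39.5 and 32.8 normalized counts in WT and 257 and 276 in set2d. Near-identical copies were not searched for these 10 genes, so whether the reads of Tf2-11 come from this locus was not tested. Over all tested genes, 11.6% were called higher and 2.77% lower. At an unadjusted p below 0.05, 4 of the 10 were higher, beside 1234 of all 6633 tested genes. The members of a position share neighbours and reads, so no test was made of position.

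Cosmid SPBPB21E7, at the left end, rose throughout its tested genes: 9 of 9, with a median log2 change of 3.91. The enolase gene eno102 (SPBPB21E7.01c), for a glycolytic enzyme, went from 2009 and 1862 normalized counts to 13967 and 18458 (log2 change 3.05). The gene aes1 (SPBPB21E7.07), of the phenazine biosynthesis family, went from 2524 and 2393 to 14467 and 22391 (log2 change 2.87). At 10426 and 15631 per kb in set2d, both were well above the median of 3595 for genes outside the set. The catechol O-methyltransferase gene cmt2 (SPBPB21E7.04c) was at 248 and 488 in WT and at 3683 and 8354 in set2d (log2 change 3.996, SE 0.42; limma, adjusted p = 0.000705), the libraries of each group lying far apart.

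Other genes of the same cosmid were low in WT. SPBPB21E7.02c, of the phosphoglycerate mutase family, went from 43.2 and 15.4 to 541 and 644 (log2 change 4.51, SE 0.49; limma, adjusted p = 0.000821). This call was lost without either set2d library (limma, adjusted p = 0.0543 and 0.0536), at changes of 4.64 and 4.39. SPBPB21E7.10 was at 10 (the floor) and 16.7 in WT and at 336 and 295 in set2d (log2 change 4.604). SPBPB21E7.11, on the other strand across 95.2% of the length of SPBPB21E7.10, was at 75.2 and 94.4 in WT and at 1089 and 1473 in set2d (log2 change 3.91). Whether strands were told apart in counting is not stated, so the 2 values may share reads where the genes overlap. The pseudogene SPBPB21E7.06 was at 16.6 and 10 (the floor) in WT and at 199 and 245 in set2d (log2 change 4.10). SPBPB21E7.06 and SPBPB21E7.10 passed the filter only with their set2d values, so their calls follow in part from it.

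The smallest changes of that cosmid were those of the pseudogene SPBPB21E7.08 and of SPBPB21E7.09. SPBPB21E7.08 was already at 8113 and 10252 in WT and rose by 0.71 (limma, adjusted p = 0.0156) to 13842 and 16030.2, a call lost without WT replicate 1, without either set2d library and without a mean-variance trend. SPBPB21E7.09, for an L-asparaginase, rose by 1.12 (limma, adjusted p = 0.00787) from 1627 and 1905 to 3290.4 and 4470 and lost the call without set2d replicate 2 (limma, adjusted p = 0.0727). Its copy SPAC186.03 at the right end of chromosome I rose by 6.84, from 44.0 and 18.3 to 2660 and 3946. The pair is 96.3% identical over the aligned 92.9% of its length, and the first 90 bases differ at 6 positions, shown because the values of the 2 copies differ so much in WT:
SPBPB21E7.09: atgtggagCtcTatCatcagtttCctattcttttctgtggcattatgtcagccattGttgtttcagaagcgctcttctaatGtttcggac
SPAC186.03: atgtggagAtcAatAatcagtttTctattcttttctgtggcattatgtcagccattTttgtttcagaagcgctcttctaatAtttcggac

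Non-coding RNA genes listed between the members were counted too. At the right end 7 of 9 rose, none fell and 2 did not pass, and within the left-end cosmid 4 of 4 rose. Of all tested genes, 11.6% were called higher and 2.77% lower. SPNCRNA.1695, which lies opposite fub2, went from 64.8 and 97.6 normalized counts to 1417 and 1304, close to the values of fub2 in every library. SPNCRNA.1302, opposite eno102, and SPNCRNA.1305, opposite SPBPB21E7.08, gave log2 changes of 3.0255 and 0.71 beside 3.05 and 0.71 for those genes. SPNCRNA.1697, SPNCRNA.1693, SPNCRNA.1692 and SPNCRNA.1304 also lie opposite genes of the set, namely gal1, SPBC8E4.03, SPBC8E4.04 and cmt2 in that order. Such pairs may be the same reads counted for both strands, so these counts may not be separate from those of the set. SPNCRNA.446 rose by 3.86, from 26.2 and 30.8 to 340 and 505. SPNCRNA.1692 and SPNCRNA.117 did not pass, at log2 changes of 0.51 and 1.28. Only 10 tested genes of the set share less than 20% of their length with an annotated gene on the other strand, and 9 of those 10 rose.

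In WT most of the set was weakly expressed for its length. Over the 41 coding genes and pseudogenes the median was 76.9 normalized counts per kb, against 3533 for the 5098 others, and 35 of the 41 were below 1969, the level under which the lowest 25% of the others lay. In set2d the median was 895, against 3595, with 26 of the 41 among the lowest 25% of the others and 11 above their median, where 3 had been in WT. Summed over the 42 genes, the libraries held 49036 and 51053 normalized counts in WT and 155501 and 190945 in set2d. The median of all genes was between 5050 and 5518 in the 4 libraries.

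The other assembled ends were set beside this one, with coding genes and pseudogenes only. Within 50 kb, 10 of 22 rose at the left end of chromosome I, 12 of 16 at its right end, 9 of 17 at the left end of chromosome II and 6 of 16 at its right end. Between 50 and 100 kb the counts were 8 of 16, 14 of 17, 12 of 19 and 11 of 14 in the same order, the third including the SPBPB21E7 genes and the last having 2 that fell, pho1 and pho84. Between 100 and 150 kb they were 5 of 22, 7 of 18, 9 of 11 and 5 of 17. Beside these counts, 767 of all 6986 listed genes, non-coding RNAs included, were called higher and 184 lower. Lists of the other ends by name prefix gave 27 of 70 at the left end of chromosome I, 32 of 55 at its right end and 27 of 45 at the left end of chromosome II; the second holds 10 genes that the annotation puts inside the arm, and without them it gave 31 of 45. Ends were not tested against each other, and copies shared between ends tie their values.

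**Figure D4:**
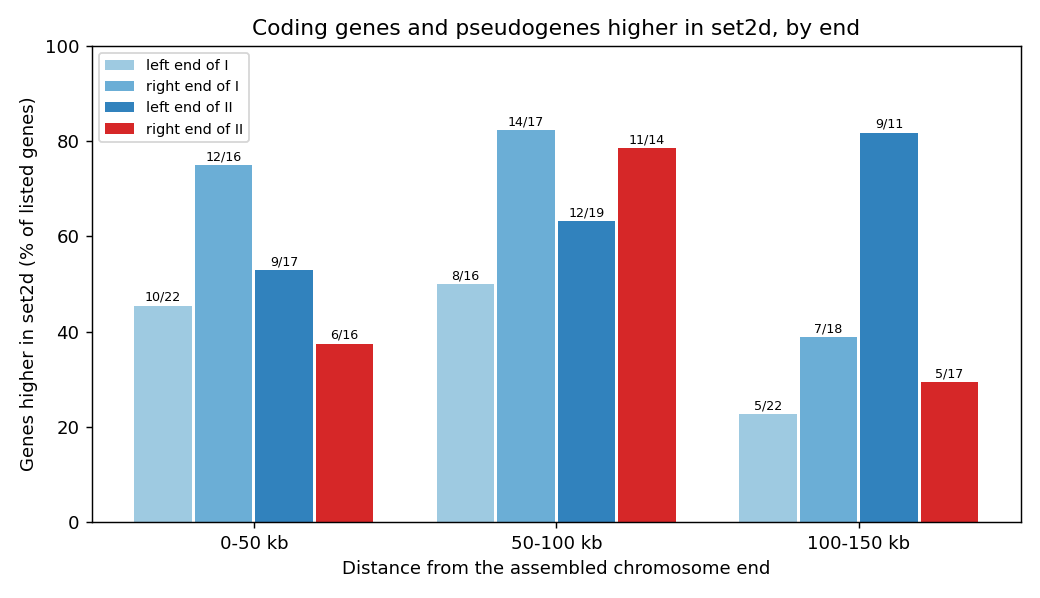
Share of coding genes and pseudogenes called higher in set2d, in percent of the genes listed, by distance from the assembled end of each arm of chromosomes I and II; the numbers over the bars are genes called higher and genes listed. The right end of chromosome II, in red, has 6 of 16, 11 of 14 and 5 of 17, with its highest share between 50 and 100 kb. Of all listed genes, non-coding RNAs included, 767 of 6986 were called higher.

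Genes for factors linked to the silencing or capping of chromosome ends were listed beside the members. Factors that act for and against silencing were not separated, and the list includes epe1, leo1, paf1 and mst2. Of 28, 8 rose, 1 (set2 itself) fell and 19 did not pass, beside 11.6% called higher and 2.77% lower of all tested genes. Those with the largest changes after set2 were mit1 (chromatin remodeller of the SHREC complex), clr4 (histone H3 methyltransferase of heterochromatin), clr2 (SHREC subunit) and rik1 (partner of Clr4), which rose by 1.54, 1.48, 0.90 and 0.87 on the log2 scale. Fewer of this list were called higher whenever 1 library was left out. The same held for all tested genes in those fits with fewer samples, so the loss of calls is not particular to this list. No member of this list is among the 42 genes.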

How the data were processed

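The 4 libraries were made from DNase-treated total RNA and read on an Illumina HiSeq, per the labels' protocols. The submitters' processing notes name the aligner STAR 2.5.4b, the counter featureCounts 1.5.0-p1 and the build ASM294v2. No source used here gives the normalization, the annotation, the strand setting or the handling of overlapping or multiply mapping reads. The deposited values are log2 normalized counts of 6986 genes, made by the authors, with a floor at 10; between 363 and 402 genes a library were at it. In set2d replicate 1, the 684 genes from 10 to 400 were all (100%) whole multiples of 1.06 (tolerance 0.012), so 1 read is worth 1.06 there; elsewhere one step covered at most 44.7% over that range, though up to 92.4% between 10 and 100, and no step held across levels, so depth is unknown. Counting errors cover counting only.

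From these values, limma 3.58.1 (R 4.3.3) with a mean-variance trend tested the 6633 genes with 2 or more libraries over the floor, two-sided, adjusted over all; 353 were left out. Degrees of freedom were 2 residual and 6.16 prior, and the fit was tested on simulated data. Fold changes against a group at the floor are lower bounds. Names, order, overlaps and copies (BLAST 2.17.0) came from ASM294v3, where 41 genes of the set matched by locus tag and 1 by a synonym. Library values are given for the galactose genes, the 10 largest changes among genes that passed with separate libraries and a mean of at least 50, tested genes that did not pass, and the repeat families (no wtf gene was found); copies and other genes were named after their values were seen. The genes of the set and the lists were chosen with earlier results of these data known. Alternatives were quantile normalization, no trend, other filters, a pseudocount of 50, a replicate block, leaving out libraries, and leaving out genes with copies or overlaps.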

Additional observations from a re-analysis of the deposited data

How the results depend on the processing

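The 29 genes called higher became 18 with no filter on low values, where the 353 genes at or near the floor enter the fit, 9 of 10 tested among genes with little overlap on the other strand, and between 22 and 29 when 1 library was left out; 8 of the 29 lost the call without at least 1 library, in fits with fewer samples. In the other alternatives the count stayed within 1.5 times, and none reversed a direction of a result given here. The median log2 change of 2.85 became 1.68 with no filter and 1.70 with log2 of the value plus 50, and ranged from 2.38 to 2.83 without 1 library. At the right end alone, an alternative chosen after seeing the data, it was 2.11. For non-coding RNAs the 11 calls became 3 with no filter and between 7 (without set2d replicate 1) and 11 without 1 library. For the silencing factors the 8 higher became 5 with quantile normalization, 5 without a trend, 1 with no filter, 2 to 5 without 1 library and 12 with the replicate block, and the 1 lower became 0 with no filter and 2 with the replicate block. At the other ends, the calls without a filter came to 9 (left I), 18 (right I) and 10 (left II), and with the replicate block to 41 for left I. Without 1 library left I gave between 17 (without set2d replicate 1) and 26 calls and left II between 15 (without set2d replicate 2) and 21. The cause of these moves was not tested. Libraries share the numbers 1 and 2 between groups, and deviations of the same number correlated at 0.451, and titles of the same number share a prefix, but with 2 pairs and no stated meaning of the prefix the pairing is not established. With the number as a replicate block, 30 genes of the set were called higher, SPBC8E4.04 now among them (limma, adjusted p = 0.000883), and over all genes 1380 higher and 847 lower in place of 767 and 184. Quantile normalization gave 574 higher and 275 lower over all genes, moving the median of all genes from 0.01 to -0.07; no trend gave 499 and 103, and no filter 177 and 21. With 2 libraries a group, low genes and genes that share reads with a copy or an opposite gene limit what can be read.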
